A study of Mus musculus with 8 samples.

Results

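The genes described here are 10 regulators and markers of naive pluripotency other than the Klf genes, namely Nanog, Esrrb, Tfcp2l1, Tbx3, Zfp42, Prdm14, Dppa3, Nr0b1, Nr5a2 and Tcl1. They were taken by name from a table of 19429 genes, and each matched 1 row. The RNA came from mouse embryonic stem cells (mESCs) of the line LF2, grown in medium with serum and leukemia inhibitory factor (LIF), a cytokine that sustains self-renewal. All lines carried a C-terminal FLAG tag on TET1, an enzyme that oxidises 5-methylcytosine in DNA. WT lines 2 and 5 kept the wild type sequence at this site, and D2018A lines 7 and 8 carried the TET1 mutation D2018A, which reduces the binding of TET1 to the O-GlcNAc transferase OGT. Each line was a clone derived by gene editing, with 2 libraries per line, so that 8 libraries from 4 lines are labelled. The study's methods also describe a deletion that WT cells carry and D2018A cells do not. The authors examined it in further cells with wild type TET1 and 1 intact copy of the interval. Those cells were not analysed here.

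The values used here are the authors' mean normalised counts, 1 per gene over all libraries of their fit. No value of a single library, line or genotype was used, so the levels below have no standard deviation and no n, and WT and D2018A cells were not compared. Error is given as a 95% Poisson interval that covers counting alone. Among the lowest means 12 values recurred, in 38 to 123 genes each. Such a value is taken as the mean left by 1 read in 1 library and is named a single-read step here. There were 4 more steps than labelled libraries, so, if each step stands for a library, each level is an average that takes in libraries not described. The size factors that the steps imply lay between 0.726 and 1.47, and the mean column summed to 10937569 normalised counts. On the same reading, the mean over the 8 labelled libraries is at most 1.5 times the mean given here. It has no lower limit above 0. In bulk RNA, fewer cells that express a gene and less RNA per cell cannot be told apart.

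Naive pluripotency is the state of the cells of the early epiblast, which LIF-dependent mESCs resemble. It rests on a network of factors that act beside the core factors Oct4, encoded by Pou5f1, and Sox2, and that are switched off as cells move towards the formative and primed states. Nanog, Esrrb, Tfcp2l1, Tbx3, Nr5a2, Prdm14 and Zfp42 bind DNA. Nr0b1 is an atypical nuclear receptor that acts mainly through other proteins, Tcl1 encodes a coactivator of the kinase AKT, and Dppa3 encodes a protein best known for protecting methylation in the zygote. Tcl1 and Dppa3 are therefore markers of the state and not transcription factors in the strict sense.

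In the means pooled over the fit 9 of the 10 genes were expressed well above the typical gene and 1, Dppa3, lay below it. Levels are compared between genes as mean normalised counts per kb of annotated exon. On that scale 9 members lay above the median of 16922 protein-coding genes, which was 24.5 per kb, and 8 lay above their 90th percentile, which was 299 per kb. The member levels ran from 8.16 per kb for Dppa3 to 3817 per kb for Esrrb, a ratio of 468 (95% counting interval from 365 to 609), and without Dppa3 from 201 to 3817, a ratio of 19.0. Together the 10 genes took 0.481% of all normalised counts, and Esrrb and Tfcp2l1 alone supplied 65.7% of that share.

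**Figure D1:**
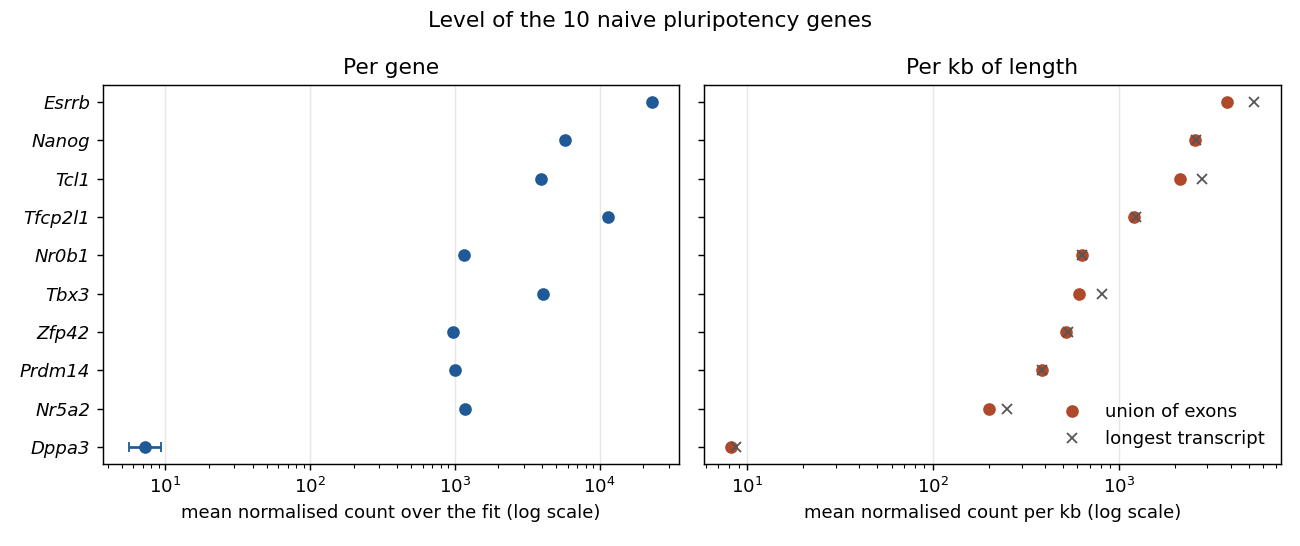
Level of each member, in order of level per kb. The left panel shows the mean normalised count over the fit with a 95% counting interval (smaller than the symbol except for Dppa3), and the right panel the mean normalised count per kb of the union of exons (circles) or of the longest transcript (crosses), both on log scales. The reader should see 9 genes from 201 to 3817 per kb of exon and Dppa3 apart at 8.16.

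Esrrb, an orphan nuclear receptor that can stand in for Nanog in self-renewal, was the most abundant member. Its mean was 23079 normalised counts (counting interval from 22979 to 23181), and 16 protein-coding genes had a higher mean. Per kb of its 6047 bases of exon the level was 3817, with 46 protein-coding genes above it. The gene (chromosome 12, 86361117 to 86521628, plus strand, GRCm38) accounted for 43.9% of the members' summed counts. None of its 50-base stretches, the length of the reads, occurred in annotated transcripts of another gene. Only exact matches were sought.

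Nanog, the homeodomain factor that allows self-renewal without LIF when it is overexpressed, was the second by level per kb. Its mean was 5767 normalised counts (5717 to 5818) and its level 2572 per kb, at percentile 99.4 of protein-coding genes. The gene spans 122707489 to 122714633 on the plus strand of chromosome 6. Of its 50-base stretches 4.61% also occurred in transcripts of other genes, most of them in the pseudogene Nanog-ps1, and reads from these stretches cannot be placed by sequence.

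Tcl1 and Tfcp2l1 followed. Tcl1 (chromosome 12, 105216750 to 105222793, minus strand) had a mean of 3923 normalised counts (3882 to 3965) and 2126 per kb. Tfcp2l1, a factor of the CP2 family that acts downstream of LIF and Stat3, had the second highest mean, 11467 normalised counts (11396 to 11538), on the longest exon length of the set, 9438 bases, which gave 1215 per kb. It lies at 118627945 to 118685168 on the plus strand of chromosome 1. Length thus decided the place of Tfcp2l1, which was second by mean but below Nanog and Tcl1 by level per kb.

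The next 4 genes lay within a narrow range, from 388 to 638 per kb. Nr0b1 (chromosome X, 86191764 to 86195947, plus strand) had a mean of 1153 normalised counts (1131 to 1176) and 638 per kb. Tbx3, a T-box factor that supports the naive state downstream of LIF (chromosome 5, 119670669 to 119684724, plus strand), had 4029.7 (3988 to 4072) and 608 per kb. Zfp42, also known as Rex1 and widely used as a reporter of the naive state (chromosome 8, 43295063 to 43306980, minus strand), had 977 (957 to 998) and 519.5 per kb. Prdm14, which represses FGF signalling and DNA methyltransferases and is needed in primordial germ cells (chromosome 1, 13113457 to 13127163, minus strand), had 996 (975 to 1017) and 388 per kb. Nr0b1 exceeded Tbx3 by a ratio of only 1.05, and their order turned when the longest transcript replaced the union of exons, with 638 and 809 per kb.

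Nr5a2, an orphan nuclear receptor that recognises nearly the same DNA element as Esrrb, was the lowest of the 9 well expressed members. Its mean was 1183 normalised counts (1160.0 to 1206), above those of Nr0b1, Prdm14 and Zfp42, yet spread over 5899 bases of exon it came to 201 per kb, at percentile 85.1. The gene covers 136842571 to 136960448 on the minus strand of chromosome 1. For every pair of neighbours in the order per kb the counting intervals of the 2 levels did not overlap. How the differences compare with the spread between libraries was not tested, since no library's value was used.

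Dppa3, also known as Stella, stood apart. Its mean was 7.28 normalised counts (5.59 to 9.31), which stands for 63 to 129 reads over all libraries of the fit, and its level was 8.16 per kb, below the median of protein-coding genes and at percentile 35.6. Nr5a2, the next member, was 24.6 times higher. The mean over the 8 labelled libraries is at most 10.9 normalised counts. Even if a single library had held every Dppa3 read, its level there would have been 97.9 per kb, below the pooled level of each other member. The gene (chromosome 6, 122626410 to 122630272, plus strand) has only 892 bases of exon, and 16.5% of its 50-base stretches also occurred in 3 other annotated genes, chiefly the pseudogene Dppa3-ps (16.0%). Counted per kb of stretches found in no other gene, Esrrb was still 369 times higher.

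**Figure D2:**
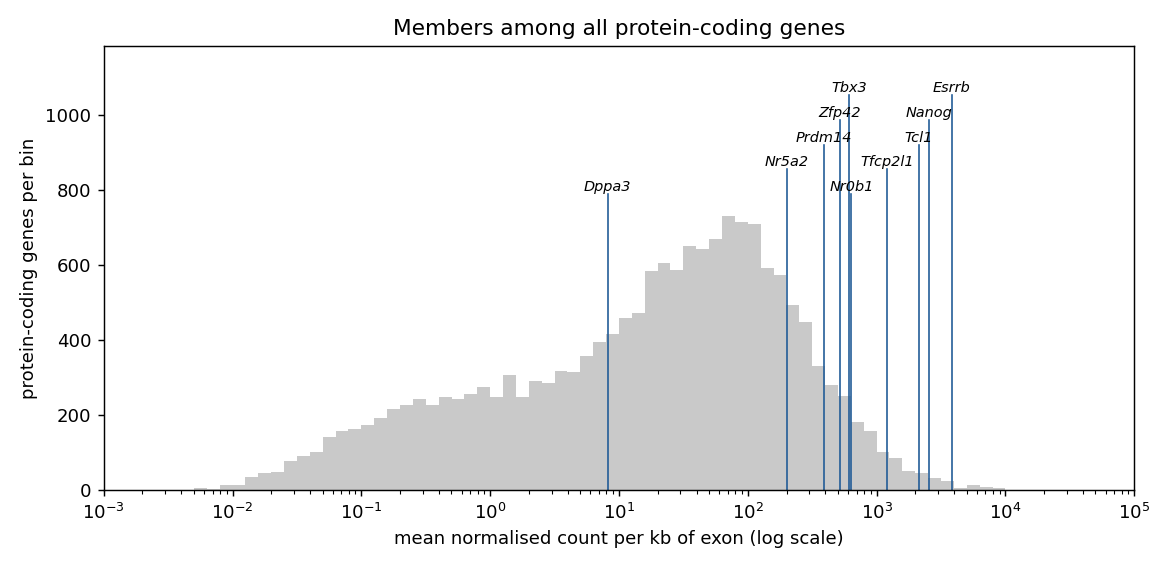
Histogram of the mean normalised count per kb of exon (log scale) for protein-coding genes, with a vertical line at each member, whose height only separates the names. The median of 24.5 per kb is not drawn. The reader should see that 9 lines lie right of that value and that the line of Dppa3, at 8.16 per kb, lies left of it.

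Of the 10 members 8 were set beside close relatives, to ask which gene of a family carried the expression. Nanog and Dppa3 were not compared, since no relatives were listed for them. Every one of the 14 relatives with a value was lower per kb than its member. Of the relatives listed for Zfp42 1 of 2 had a value, and of those listed for Tcl1 3 of 6. The others could not be compared. Esrrb was 214 times higher than Esrra (17.8 per kb), which acts in energy metabolism, while Esrrg had a mean of 0.301, that is 2 to 6 reads. Nr5a2 was 769 times higher than Nr5a1 (9 to 20 reads), the steroidogenic factor of gonad and adrenal, and Nr0b1 was 167 times higher than Nr0b2. Tbx3 was the only T-box gene of its subfamily with more than a trace, since Tbx2, Tbx4 and Tbx5 had 1.27, 1.51 and 0.811 per kb.

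The gap to the nearest relative was smaller in 3 families. Tfcp2l1 was 3.88 times higher than Ubp1 (313 per kb) and 80.9 times higher than Tfcp2. Prdm14 was 3.29 times higher than Prdm1 (118 per kb), which encodes Blimp1, a regulator of germ cell fate. Zfp42 was 9.85 times higher than Yy1 (52.8 per kb), the ubiquitous factor to which its zinc fingers are related. Tcl1 was 236 times higher than Mtcp1 (9.02 per kb) and 762 times higher than Tcl1b2, and Tcl1b1 had at most 2 reads. Tcl1b2 shares 24.0% of its 50-base stretches with other genes, so its value is uncertain, whereas Tcl1 shares none. The shares were 12.4% for Tcl1b1, 11.7% for Mtcp1, 10.6% for Ubp1 and 6.50% for Tfcp2. For Zfp42 the share was 8.52%, all with the pseudogene Zfp42-ps1. The ratios that rest on these genes are uncertain to that extent.

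To place the members among other regulators, their levels were compared with lists of genes for related states and other cell types. The 3 Klf genes of the naive network overlapped the top of the members' range, with 3473 per kb for Klf5, 2146 for Klf4 and 1094 for Klf2. The core list did so too, from 123 per kb for Dppa4, a chromatin-binding pluripotency marker, to 5903 for Utf1, a pluripotency-associated chromatin factor. Its median was 894 per kb, against 623 for the members. Esrrb, Nanog, Tcl1 and Tfcp2l1 all lay above Pou5f1 (894 per kb), and the first 3 also lay above Sox2 (1527) and Sall4 (1954), a zinc finger partner of both. Stretches shared with other genes were not sought for the core genes. Whether such stretches lower the level of Pou5f1, Sox2 or Sall4 was therefore not tested. Among the other core genes the levels were 1129 per kb for Tdgf1, 678 for Lin28a, 291 for Zfp281 and 214 for Dppa2. Of the LIF pathway all 6 genes were above the protein-coding median, up to 931 per kb for the feedback inhibitor Socs3.

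Genes of later or other lineages lay mostly below the members. The formative and primed list had a median of 40.1 per kb. Its highest value was 327 for Zic2, a level that 8 of 10 members exceeded. Of its 10 genes 6 were above the protein-coding median, namely Zic2, Dnmt3b (308 per kb), Foxd3 (273), Zic5 (62.0), Otx2 (48.0) and Lef1 (32.2). Its classical marker Fgf5 was the lowest of the list, at 0.336 per kb. Primitive endoderm genes had a median of 5.60 per kb and reached 100.2 for Sox7, and trophectoderm genes had a median of 9.66 and reached 460.3 for Tfap2c, which mESCs and germ cells also express. Of the 8 trophectoderm genes 3 were above the protein-coding median, namely Tfap2c, Eomes (47.8 per kb) and Krt18 (26.8). Cdx2 and Elf5, defining genes of the trophectoderm, were the lowest of the list, with 0.659 and 0.192 per kb. Among neural genes Tubb3 stood at 929 per kb, above 6 members, while the median was 18.7. Of 7 fibroblast or feeder genes 4 had a value, the highest 64.8 per kb for Thy1, and Col3a1 had a mean of 0.0930, the value of a single-read step.

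Dppa3 was the only member below the medians of the formative and neural lists, and lay above that of the primitive endoderm list. It was also the only member under the trophectoderm median of 9.66 per kb and the fibroblast median of 8.76. The fibroblast median covers only the 4 genes with a value. Neither of these 2 gaps exceeds the counting error of Dppa3, whose mean of 7.28 had an interval from 5.59 to 9.31. Nr5a2 also lay below Zic2 and Tfap2c, and Prdm14 below Tfap2c. Of 10 formative and primed genes 8 were above Dppa3, as were 4 of 8 primitive endoderm genes, 4 of 8 trophectoderm genes and all 5 neural genes. The Dppa3 level of 8.16 per kb was close to that of Cubn (8.49), an endocytic receptor of the endoderm, and Hand1 (6.79), a trophoblast factor.

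**Figure D3:**
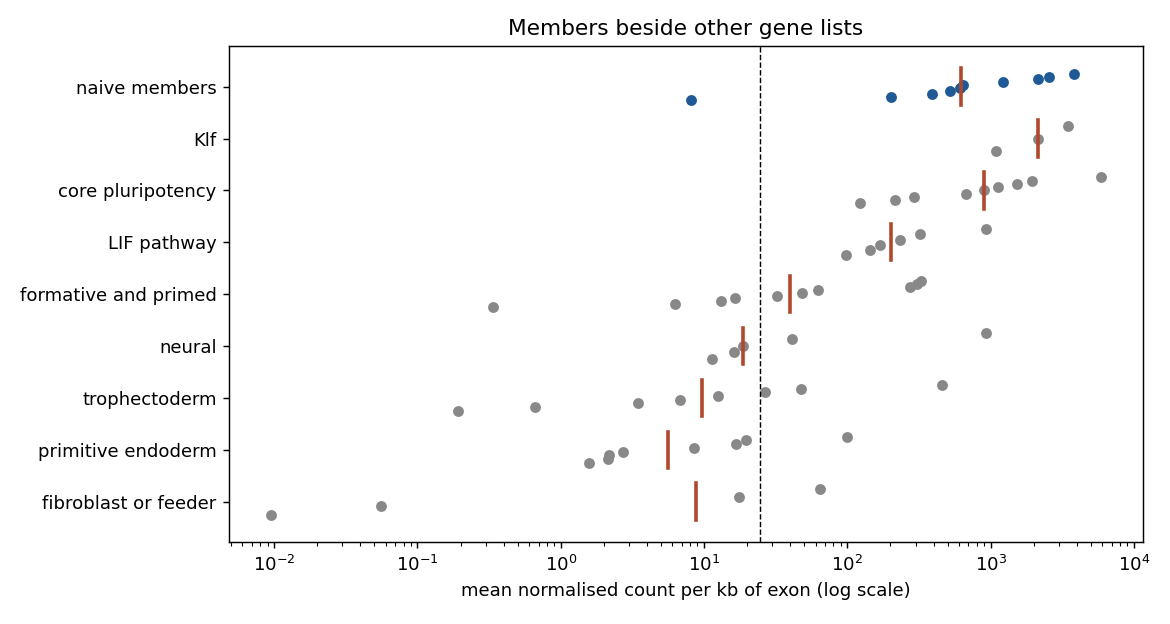
Mean normalised count per kb of exon (log scale) of the members and of 8 other gene lists. Each point is a gene, spread vertically only for legibility, the red bar is the median of the list and the dashed line the median of protein-coding genes. The members' median of 623 per kb lies between those of the core list (894) and the LIF pathway (201), and a single member lies left of the dashed line.

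Dppa3 and Nanog are neighbours on chromosome 6, separated by 77.2 kb, in a region known for several genes expressed in mESCs. Their levels per kb differed by a ratio of 315. Gdf3, a TGF-beta family ligand that ends 16.3 kb from Dppa3 (122605403 to 122610087), had 915 per kb, 112 times the level of Dppa3. Apobec1, an RNA-editing deaminase on its far side (122577792 to 122602444), had 81.1 per kb. Slc2a3, a glucose transporter gene 13.2 kb beyond Nanog (122727809 to 122801640), had 1372 per kb. Dppa3 was thus the lowest of the 5 genes analysed in this region, with strongly expressed genes on both sides.

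**Figure D4:**
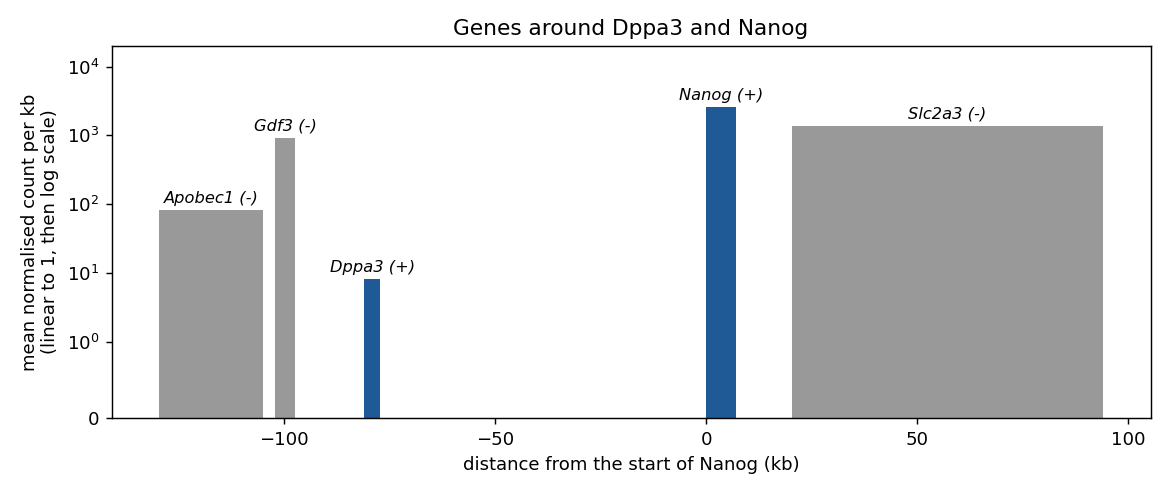
Genes around Dppa3 and Nanog by distance from the start of Nanog (kb). Bar width is the span of the gene, bar height the mean normalised count per kb of exon on an axis that is linear to 1 and logarithmic above, and the strand is in parentheses. Dppa3, at 8.16 per kb, lies between Gdf3 at 915 and Nanog at 2572.

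The other members had few neighbours within 50 kb. Tbx3 lies among 4 noncoding genes, Tbx3os2 at 52.1 per kb, Gm16063 at 22.2, Gm16064 at 8.20 and Tbx3os1 at 7.90, from 11.7 to 77.0 times lower than Tbx3. Of these Tbx3os1 runs on the opposite strand and shares 115 bases of exon with Tbx3, 1.74% of its exon length, and since strand is not stated to have been used in counting, reads there are uncertain. Tfcp2l1 shares 130 bases of exon, 1.38%, with the small nuclear RNA gene Gm23497 on the same strand, while Gm22094 and Gm28882, which overlap its span, share none. Clasp1, 15.3 kb from Tfcp2l1, had 71.7 per kb, and Ncoa2, 11.9 kb from Prdm14, had 144. Both encode widely expressed proteins, a microtubule-binding protein and a nuclear receptor coactivator, and both lay below their neighbour, 17.0 and 2.69 times. The noncoding gene Gm29283, 34.8 kb from Prdm14, had 1.74 per kb. No gene of the table lay within 50 kb of Esrrb, Zfp42, Nr0b1, Nr5a2 or Tcl1.

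Because TET1 acts on methylated CpG sites, the CpG content of the members' promoters was described from the reference. RefSeq promoter sequences (GRCm38.p6) were matched for 7 members, and those of Tbx3, Prdm14 and Dppa3 were not analysed here. In the 250 bases before the start, 1 of the 7, Tfcp2l1, was CpG-rich, defined as a GC content of at least 50% with an observed to expected CpG ratio of at least 0.6. The ratio was 0.609 for Tfcp2l1, just inside the limit, and 0.546 for Nr0b1, just outside. Among 9879 genes with a promoter sequence and a mean of at least 10 normalised counts, 64.3% were CpG-rich, and among all 27025 genes with a promoter 31.4% were. With the stricter limits of 55% and 0.75, none of the 7 was CpG-rich, against 40.7% of the genes with a mean of at least 10. The ratios of the remaining 5 were 0.423 for Zfp42, 0.343 for Tcl1, 0.264 for Esrrb, 0.182 for Nanog and 0.172 for Nr5a2.

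Among the most upstream promoters of the 7 members, those with the highest and the lowest ratio, 250 bases each, show the contrast, with every CG in capitals. That of Tfcp2l1 is chr1:118627695-118627944 on the plus strand and holds 16 CG dinucleotides, and that of Nr5a2 is chr1:136960449-136960698 on the minus strand and holds 2. Which is lowest depends on the start chosen, since a second promoter of Nanog had a ratio of 0.104 and one of Nr5a2 0.431. A second promoter of Esrrb had 0.188.

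Tfcp2l1: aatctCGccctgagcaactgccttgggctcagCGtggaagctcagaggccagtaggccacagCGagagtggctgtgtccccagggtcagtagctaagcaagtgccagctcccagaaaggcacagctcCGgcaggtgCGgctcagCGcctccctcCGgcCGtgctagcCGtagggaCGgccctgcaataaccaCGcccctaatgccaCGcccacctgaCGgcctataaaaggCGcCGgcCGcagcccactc
Nr5a2: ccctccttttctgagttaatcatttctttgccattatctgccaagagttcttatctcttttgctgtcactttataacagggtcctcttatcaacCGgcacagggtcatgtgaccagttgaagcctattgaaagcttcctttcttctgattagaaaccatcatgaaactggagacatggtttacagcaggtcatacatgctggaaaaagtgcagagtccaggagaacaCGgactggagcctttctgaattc

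The start lies at the right end of each sequence. Esrrb, the most expressed member, had 6 CG in the same length and Nanog 3. Of the genes with a sequence in the other lists, 3 of 6 core, 2 of 2 Klf, 5 of 6 LIF pathway, 5 of 5 neural, 3 of 6 formative, 2 of 6 trophectoderm, 0 of 4 primitive endoderm and 0 of 3 fibroblast genes were CpG-rich.

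**Figure D5:**
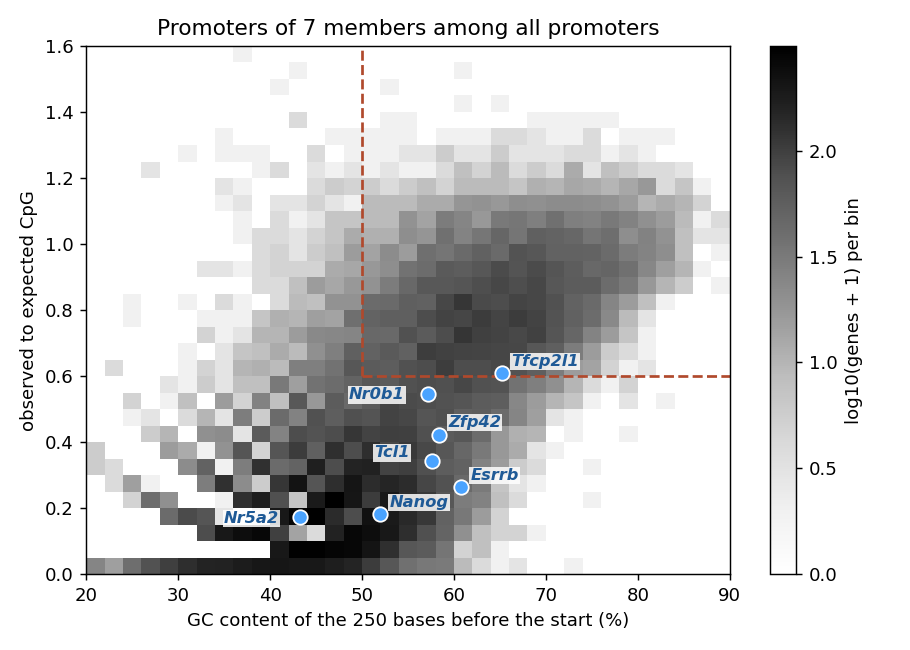
GC content (%) and observed to expected CpG ratio of the 250 bases before the start. Grey squares are bins of all genes with a RefSeq promoter (log10 of genes plus 1, ratios above 1.6 drawn at 1.6), blue points are 7 members and the dashed lines enclose CpG-rich promoters. Of the members Tfcp2l1, at a ratio of 0.609, is the only point inside the lines.

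The promoters were searched on both strands for short motifs of factors in the network. The octamer core ATGCAAA, bound by Oct4, occurred in the promoters of Nanog and Zfp42, 2 of 7, and in 4.07% of all promoters. The SOX core CATTGT occurred in that of Nanog alone among the members and in 10.9% of all promoters. In Nanog both lay side by side, the octamer core from 75 to 69 and the SOX core from 67 to 62 bases before the start, on the same strand with 1 base between them. This composite, whose spelling follows the element known from Nanog and was chosen with it in mind, occurred in 0.00370% of all promoters, which is that of Nanog itself. The nuclear receptor core AGGTCA was present in 3 of 7, Nanog, Nr0b1 and Nr5a2, against 13.8% of all, but the longer half-site of Esrrb and Nr5a2, TCAAGGTCA, which contains it, was in none of the 7 windows and in 0.366% of all.

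GC boxes, GGGCGG, to which Klf and Sp factors bind, were in 2 of 7, Tcl1 and Zfp42, against 33.0% of all promoters. TATAAA was in 3 of 7, Nr0b1, Nr5a2 and Tfcp2l1, against 13.0%, and lay on the plus strand within 32 bases of the start in Nr0b1 and Tfcp2l1. The STAT site TTCCNGGAA was in none of the 7 windows and in 0.918% of all. The sequences of Nanog (chr6:122707239-122707488, plus strand) and Zfp42 (chr8:43307010-43307259, minus strand) are given with all matches in capitals, since these 2 hold the octamer.

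Nanog: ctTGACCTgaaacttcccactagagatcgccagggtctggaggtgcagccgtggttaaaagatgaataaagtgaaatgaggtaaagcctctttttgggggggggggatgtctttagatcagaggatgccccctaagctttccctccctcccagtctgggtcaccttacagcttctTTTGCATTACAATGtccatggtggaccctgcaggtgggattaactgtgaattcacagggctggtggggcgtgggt
Zfp42: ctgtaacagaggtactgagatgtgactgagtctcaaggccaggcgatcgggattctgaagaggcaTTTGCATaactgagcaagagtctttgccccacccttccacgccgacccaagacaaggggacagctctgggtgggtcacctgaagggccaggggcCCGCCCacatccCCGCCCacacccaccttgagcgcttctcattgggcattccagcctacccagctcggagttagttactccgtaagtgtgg

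In Nanog the first capitals are the reverse complement of the nuclear receptor core and the long run is the octamer and SOX pair. In Zfp42 the capitals are, from the left, the octamer core and a pair of GC boxes. These matches are descriptions of the letters in these windows, and binding was not measured here.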

How the data were processed

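RNA was depleted of ribosomal RNA and made into total RNA libraries, which were read as single ends of 50 bases. Per the labels and the study's methods, the authors counted reads per gene with STAR 2.5.3a on GRCm38.p6 and normalised with DESeq2 1.20.0. The deposited signal per gene is the authors' mean of counts divided by size factors, pooled over all libraries. A further 5 columns hold the authors' own comparison of D2018A with WT and were not used. They are the fold change, its standard error, the statistic, the p-value and the adjusted p-value. Columns of values per sample that were left out number 0. The planned edgeR comparison of the genotypes was not run, since it needs counts per library.

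Exon lengths came from GENCODE vM21 on GRCm38, in which 19342 of 19429 identifiers were found. Rows with no gene name held 0.0191% of the total. Steps were values shared by at least 20 genes and not sums of lower steps. The step finder was tested on simulated data. The reads behind a mean lie between the mean divided by the largest and by the smallest step, and Poisson intervals used the smaller number. Promoters were those of RefSeq, the most upstream one per gene. Stretches of the members and their relatives were sought on both strands of all GENCODE transcripts. Other listed genes, and copies elsewhere in the genome, were not examined. Python 3.11.15, pandas 2.3.3 and scipy 1.17.1 were used.

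The text names all members, their listed relatives with a value, and every core and Klf gene. It also names the highest gene of each other list, and genes that overlap a member or lie within 50 kb of it. Other listed genes named were chosen after their values were seen. The members, lists and rule were chosen with earlier results of these data known.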

Additional observations from a re-analysis of the deposited data

Results flagged for a closer look

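The mean column held a signal beyond the labelled libraries. Its single-read steps numbered 12, against 8 labelled libraries, so, if each step stands for a library, 4 libraries of the authors' fit were not described. A member's level then cannot be assigned to the labelled cells alone. On that reading the most that the labelled libraries can average is 12.2 per kb for Dppa3 and 5725 per kb for Esrrb. How much of any member's reads came from the other libraries was not tested.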

How the results depend on the processing

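The number of members above the median, 9, was the same with the longest transcript, without length, against all genes and against genes with a mean of at least 10. The ratio of Esrrb to Dppa3, 468, was 614 with the longest transcript and 3170.1 without length, both larger because the exon length of Esrrb was larger than that of Dppa3 or shrank more, and 369 per stretch found in no other gene, an alternative chosen after seeing the data in place of stretches found once in the genome, which was not run. Nanog and Tcl1, and Nr0b1 and Tbx3, changed places with the longest transcript. The number of CpG-rich promoters, 1, was the same with 50 bases after the start and 0 under stricter limits. Among the members depth limits mainly Dppa3, and among the other genes named those with few reads, such as Esrrg, Nr5a1, Tcl1b1, Fgf5, Elf5, Cdx2 and Col3a1. Replicates could not be left out. No paired analysis was possible because the value used is a mean over all libraries, so the alternatives of the genotype comparison (libraries as replicates, lines left out, DESeq2 by the authors' method, no filter) were not run.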
